A study of Homo sapiens with 6 samples.

Results

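The human *APOBEC3* genes *APOBEC3A*, *APOBEC3B*, *APOBEC3C*, *APOBEC3D*, *APOBEC3F*, *APOBEC3G* and *APOBEC3H* were followed by symbol through RT4 cells depleted of *LEADR*, a non-coding transcript of *MIR205HG*. These 7 genes are all found in the deposited table of 57905 genes, and 4 of them (*APOBEC3B*, *APOBEC3C*, *APOBEC3F* and *APOBEC3G*) had enough counts to be tested. RT4 is an established line from a non-muscle invasive bladder tumour, labelled as WT in genotype. The cells received 100 pmol of a siRNA against *LEADR* (LEADR-KD) or of a scramble siRNA (Scramble) and were collected after 48 h, with 3 poly(A) RNA libraries for each siRNA. A single *LEADR* siRNA sequence was used in 1 cell line. The methods of the study call the sequenced samples biological replicates without saying how they were grown, and p values measure the spread between these libraries.

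APOBEC3 enzymes convert cytosine to uracil, mainly in single-stranded DNA. Several of them restrict retroviruses and mobile elements, and interferon is known to raise the transcription of some of them, best described for *APOBEC3A*, *APOBEC3F* and *APOBEC3G*. In bladder tumours the C-to-T and C-to-G changes at TC dinucleotides have been attributed to this family, with *APOBEC3A* and *APOBEC3B* as the main candidates. The 7 genes stand next to each other on chromosome 22 and arose by duplication, which leaves stretches of near-identical sequence between them.

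A siRNA can also bind other transcripts through its seed, bases 2 to 8 of the strand that guides it. The sequence that separates both groups is the siRNA itself, shown 5′ to 3′ with bases 2 to 8 of the listed strand in capitals. It is followed by the only matches to bases 2 to 7 in the protein-coding transcripts of the 4 tested genes, in 30-base windows of GRCh37 (the build also called hg19), plus strand, with the 6 matching bases in capitals.
LEADR siRNA: aACUGGGUgcuuuauauagga
APOBEC3F, 3′ UTR, chr22:39449942-39449971: gcaatggaacctCCCAGTtcccaacccttc
APOBEC3F, 3′ UTR, chr22:39451801-39451830: tgcatgtagcccCCCAGTcacgtagcccac
The match to bases 2 to 8 of the listed strand, ACCCAGT, occurred in 0 of the 31 annotated transcripts of the 7 genes. ATATAGG, the match to bases 2 to 8 of the complementary strand, did not occur in them either. Both *APOBEC3F* windows lie in the transcript APOBEC3F-201, beyond position 39449915, where the gene ends in the annotation of the deposited table. The 6-base match CCCAGT is common, since 76.4% of the 1795 tested genes with a longest transcript of similar length to APOBEC3F-201 (within 10%) hold it, and 27.3% hold ACCCAGT. In *APOBEC3G* the 6-base match was found in only 2 transcripts, both with a retained intron, and not in the coding transcript APOBEC3G-201. *APOBEC3A*, *APOBEC3B*, *APOBEC3C* and *APOBEC3H* hold no CCCAGT, and *APOBEC3D* holds it once in its 3′ UTR. The 6-base matches are those of the listed strand, and shorter matches of the complementary strand were not searched. Which of these strands guides the siRNA was not determined. These are matches of letters on the transcript strand, and whether the siRNA acts through them was not tested.

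The libraries held 15706033 to 18960822 counts, of which 2366 to 3054 were in the 7 *APOBEC3* genes. *MIR205HG*, the targeted gene, had 113, 211 and 101 counts in LEADR-KD against 511, 337 and 346 in Scramble (log2 fold change -1.47, adjusted p = 0.00180 from edgeR). Mitochondrial genes took 4.79% to 10.8% of the counts in LEADR-KD and 3.06% to 11.9% in Scramble, with the highest share of each group in its library 1. Of 17 urothelial markers all had counts, with at most 6 counts of *KRT5* and 19 of *KRT20* in a library. Of the 15 that were tested, *CDH1*, *UPK1B* and *KRT18* rose (log2 fold changes 1.11, 0.76 and 0.39) and *FOXA1* fell (-0.30), where edgeR called 24.4% of all genes in either direction, the last 2 of these being lost without LEADR-KD 1, LEADR-KD 3 or Scramble 2 (adjusted p = 0.0584 to 0.0971), and *KRT18* also without Scramble 3 (0.105). Of 3 tested fibroblast and endothelial markers *VWF* fell, at 3.71 ± 1.02 CPM in LEADR-KD and 8.28 ± 1.67 CPM in Scramble (log2 fold change -1.16, adjusted p = 0.00553 from edgeR, 0.0736 to 0.0963 by limma), and 4 of the 9 found had no count. At an unadjusted p under 0.05, and also by DESeq2, 2 of the 3 were lower. Over all genes tested, edgeR called 12.1% lower at an adjusted p under 0.05, and the share at an unadjusted p was not computed. Of 19 leukocyte markers, the cells in which *APOBEC3G* and *APOBEC3H* are best known, 9 had no count in any library. *PTPRC*, *CD3E* and *CD4* had at most 4 counts in a library, and the list summed to 5.20 to 9.004 CPM (counts per 1e+06 counts, with library sizes adjusted by TMM, the trimmed mean of M values) in LEADR-KD and 5.54 to 9.85 in Scramble, most of it *ITGAM*, which did not pass. Their part in the results that follow was not tested. For a bulk sample, fewer cells that express a gene and less RNA per cell cannot be told apart.

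*APOBEC3G* and *APOBEC3F* were lower in *LEADR*-depleted cells, and *APOBEC3B* and *APOBEC3C*, which carry most of the family's counts, did not pass the test. Of the 4 tested genes 2 fell and 0 rose at an adjusted p under 0.05 (edgeR's quasi-likelihood test across all genes, with Benjamini-Hochberg adjustment). Over all 14178 genes tested, 12.1% fell and 12.2% rose, together 24.4%. At an unadjusted p under 0.05 the number that rose was also 0, and DESeq2 likewise called 2 lower and 0 higher. The median log2 fold change of the 4 genes was -0.33, beside -0.01 over all genes tested.

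*APOBEC3G*, which encodes the deaminase that HIV-1 Vif targets for degradation, showed the larger fall. It had 154, 186 and 215 counts in the LEADR-KD libraries against 337, 336 and 310 in the Scramble libraries. These are 9.65, 10.2 and 12.2 CPM in LEADR-KD against 19.8, 17.2 and 18.5 CPM in Scramble. The highest LEADR-KD library stayed below the lowest Scramble library. Over all genes tested, 19.9% were lower in this non-overlapping way. The means were 10.7 ± 1.32 CPM in LEADR-KD and 18.5 ± 1.30 CPM in Scramble (SD, n = 3 each). The log2 fold change was -0.79 (standard error 0.14, 95% interval -1.10 to -0.49, adjusted p = 0.00177 from edgeR), which is 0.577 of the Scramble level. It passed under all 17 alternatives run for it, with log2 fold changes from -0.89 to -0.56 and adjusted p values from 2.83e-05 to 0.0326.

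*APOBEC3F*, whose product also restricts Vif-deficient HIV-1 and carries a pair of deaminase domains like that of *APOBEC3G*, followed in the same direction. It had 103, 150 and 154 counts in LEADR-KD against 219, 203 and 203 in Scramble, or 6.45, 8.25 and 8.72 CPM against 12.9, 10.4 and 12.1 CPM. The groups did not overlap here either, with LEADR-KD 1 the lowest library. The log2 fold change was -0.59 (standard error 0.17, 95% interval -0.96 to -0.22, adjusted p = 0.0247 from edgeR). This call was near the threshold. It did not pass without LEADR-KD 1 (adjusted p = 0.0712), LEADR-KD 2 (0.0597), Scramble 1 (0.0762) or Scramble 3 (0.0640), nor without both libraries numbered 1 (0.135), so that 1 rather than 2 of the genes fell in these fits. It was also lost by limma on log2(FPKM + 1) with no filter (adjusted p = 0.0964). Its direction was kept under all 17 alternatives.

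**Figure D1:**
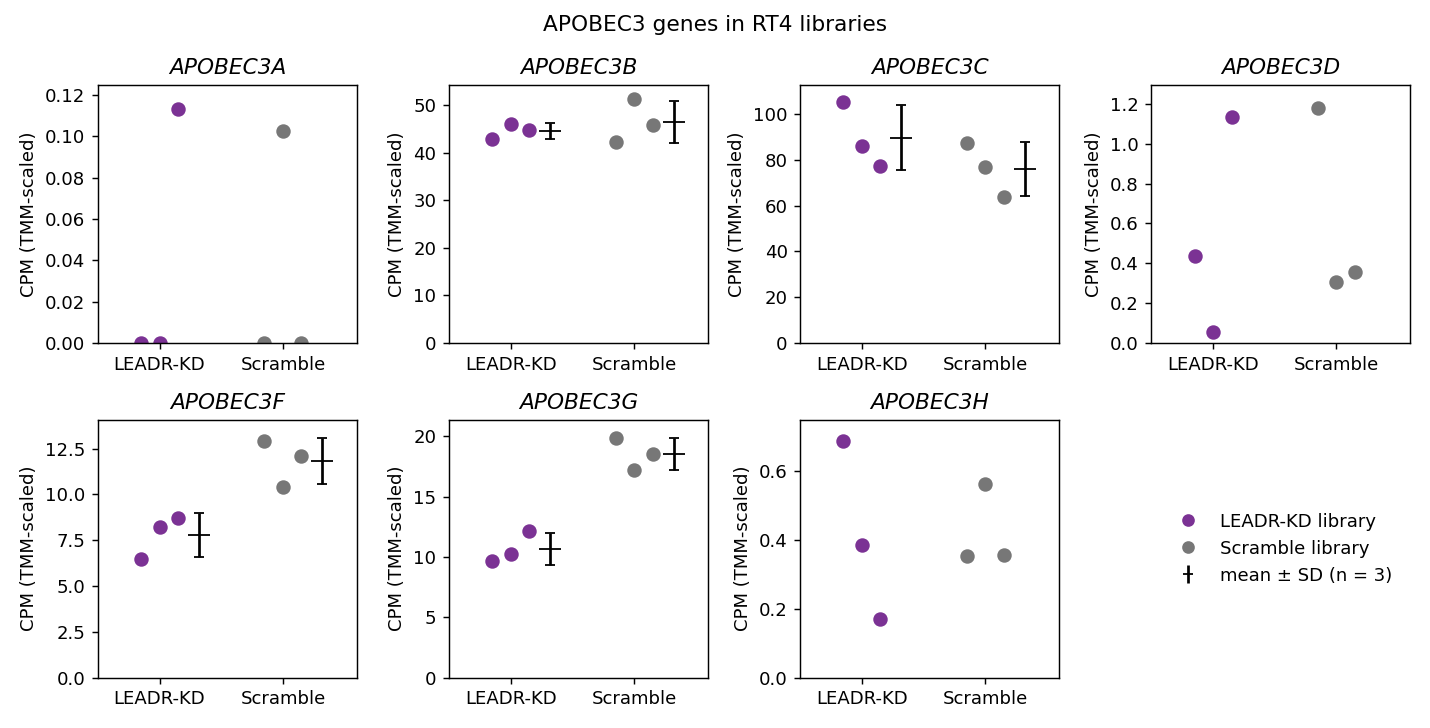
TMM-scaled CPM of each *APOBEC3* gene in each library (y axes start at 0 and differ between panels), with LEADR-KD in purple, Scramble in grey and, for the 4 tested genes, the mean ± SD of 3 libraries. *APOBEC3G* lies at 9.65 to 12.2 CPM in LEADR-KD and 17.2 to 19.8 CPM in Scramble, whereas the *APOBEC3B* and *APOBEC3C* libraries of both groups overlap.

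*APOBEC3B*, which encodes a nuclear deaminase and is one of the candidates for tumour mutation, stood at 42.8, 46.1 and 44.7 CPM in LEADR-KD against 42.3, 51.2 and 45.9 CPM in Scramble. All 3 LEADR-KD values lay within the range of the Scramble values. The log2 fold change was -0.06 (standard error 0.10, adjusted p = 0.702 from edgeR), and its 95% interval of -0.28 to 0.16 left out changes of the size seen for *APOBEC3G*. Its sign turned, to 0.015, when Scramble 2 was left out.

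*APOBEC3C*, which encodes a single-domain deaminase, was the most abundant member. It stood at 105, 86.3 and 77.5 CPM in LEADR-KD against 87.5, 76.9 and 64.0 CPM in Scramble. The ranges overlapped, with LEADR-KD 3 close to Scramble 2, and library 1 was the highest in each group. The log2 fold change was 0.24 (standard error 0.13, 95% interval -0.05 to 0.53, adjusted p = 0.229 from edgeR). Its estimate was positive under all 17 alternatives, between 0.11 and 0.35.

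*APOBEC3D*, *APOBEC3H* and *APOBEC3A* had too few counts to be tested. *APOBEC3D*, which encodes a further two-domain restriction factor, had 7, 1 and 20 counts in LEADR-KD against 20, 6 and 6 in Scramble. *APOBEC3H*, whose human haplotypes differ in protein stability, had 11, 7 and 3 counts in LEADR-KD against 6, 11 and 6 in Scramble. The groups overlapped for both genes. *APOBEC3A*, the other candidate for tumour mutation and strongly induced by interferon in myeloid cells, had 0, 0 and 2 counts in LEADR-KD against 0, 2 and 0 in Scramble. A count of 0 allows up to 3 counts, which is 0.154 to 0.188 CPM in these libraries and covers counting error only, so a difference in *APOBEC3A* was not detectable at this depth. Without the filter on low genes, the fits gave adjusted p values of 0.913 for *APOBEC3D*, 0.996 for *APOBEC3H* and 0.9998 for *APOBEC3A* (edgeR). The antisense gene *APOBEC3B-AS1* and the pseudogene *APOBEC3AP1*, which the table places on chromosome 4, had 0 counts in all 6 libraries, below the same limit.

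The order of the members was compared per length, as FPKM (counts scaled by gene length and library size, deposited by the authors). *APOBEC3C* averaged 31.8 ± 5.14 FPKM in LEADR-KD and 26.8 ± 4.16 FPKM in Scramble. *APOBEC3B* followed at 23.4 ± 0.773 FPKM in LEADR-KD and 24.3 ± 2.37 FPKM in Scramble (SD, n = 3). In Scramble these neighbours in the order overlapped, since *APOBEC3C* ranged from 22.4 to 30.8 FPKM and *APOBEC3B* from 22.1 to 26.8 FPKM, and in LEADR-KD the lowest *APOBEC3C* library, at 27.4 FPKM, was above the highest *APOBEC3B* library, at 24.2 FPKM. Averaged over the 6 libraries, *APOBEC3C* exceeded 88.7% and *APOBEC3B* 85.7% of the genes tested. Their order in Scramble depended on the length used. Divided by the 2644 bases of APOBEC3C-201, *APOBEC3C* came to 33.9 ± 5.40 CPM per kilobase in LEADR-KD and 28.8 ± 4.46 in Scramble. *APOBEC3B*, divided by the 1590 bases of APOBEC3B-201, came to 28.0 ± 1.02 in LEADR-KD and 29.2 ± 2.83 in Scramble. The counts were collected over the gene models of the deposited table, whose lengths are 2818 bases for *APOBEC3C* and 1896 for *APOBEC3B*.

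*APOBEC3F* and *APOBEC3G* came next, and their order also depended on the length used. *APOBEC3F* averaged 2.40 ± 0.363 FPKM in LEADR-KD and 3.61 ± 0.383 FPKM in Scramble, and *APOBEC3G* 1.94 ± 0.239 FPKM in LEADR-KD and 3.34 ± 0.232 FPKM in Scramble. The deposited table gives *APOBEC3G* a length of 5496 bases. All exons of the gene in GENCODE, retained introns among them, cover 5375 bases, whereas its coding transcript APOBEC3G-201 has 1564 bases. Divided by the length of this transcript, *APOBEC3G* came to 6.83 ± 0.847 CPM per kilobase in LEADR-KD and 11.8 ± 0.832 in Scramble. *APOBEC3F*, divided by the 4496 bases of APOBEC3F-201, came to 1.74 ± 0.266 in LEADR-KD and 2.63 ± 0.282 in Scramble. On that scale *APOBEC3G* was above *APOBEC3F* in every library, whereas on the FPKM scale it was below it in every library. The counts were collected over the gene models of the deposited table, not over these transcripts. In that table *APOBEC3F* ends at 39449915, short of the end of APOBEC3F-201, and *APOBEC3G* spans 5496 bases. The transcript scale therefore divides counts by lengths other than those counted, and does not settle the order of these genes. The fold changes between the groups do not depend on the length.

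*APOBEC3H* averaged 0.331 ± 0.209 FPKM in LEADR-KD and 0.337 ± 0.0960 FPKM in Scramble, and *APOBEC3D* 0.213 ± 0.214 FPKM in LEADR-KD and 0.239 ± 0.190 FPKM in Scramble. These neighbours in the order overlapped in both groups. *APOBEC3A* stood last, at 0.0562 FPKM in LEADR-KD 3, 0.0507 FPKM in Scramble 2 and 0 in the other 4 libraries.

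The summed level of the 7 genes was alike in both groups, at 166, 151 and 145 CPM in LEADR-KD against 164, 157 and 141 CPM in Scramble. Its make-up differed. *APOBEC3G* took 5.83%, 6.76% and 8.42% of the *APOBEC3* counts in LEADR-KD against 12.1%, 11% and 13.1% in Scramble, and *APOBEC3F* 3.90%, 5.45% and 6.03% against 7.86%, 6.65% and 8.58%. The share of *APOBEC3C* was 63.7%, 57.0% and 53.6% in LEADR-KD against 53.3%, 49.1% and 45.3% in Scramble. The shares of all of these 3 genes were apart, for *APOBEC3C* by little, with LEADR-KD 3 just above Scramble 1. Shares of a total are tied to each other, so lower shares of *APOBEC3G* and *APOBEC3F* by themselves raise that of *APOBEC3C*. The CPM of *APOBEC3C* overlapped between the groups.

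Ratios between members within a library do not depend on how libraries are scaled. For each *APOBEC3C* count there were 0.0915, 0.119 and 0.157 *APOBEC3G* counts in LEADR-KD against 0.227, 0.224 and 0.289 in Scramble. The mean log2 ratio differed by -1.04 (two-sided exact permutation test over the 6 libraries, p = 0.1, the smallest p that 3 against 3 libraries allow, and 0.12 adjusted over 6 ratios). The log2 ratio of *APOBEC3G* to *APOBEC3B* differed by -0.74, and those of *APOBEC3F* to *APOBEC3C* and to *APOBEC3B* by -0.84 and -0.55, each at the same exact permutation p. The ratio of *APOBEC3G* to *APOBEC3F* itself was 1.495, 1.24 and 1.396 in LEADR-KD against 1.54, 1.66 and 1.53 in Scramble, a log2 difference of -0.20, again at the smallest p. The ratio of *APOBEC3B* to *APOBEC3C* overlapped between the groups (difference -0.29, exact permutation p = 0.3).

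**Figure D2:**
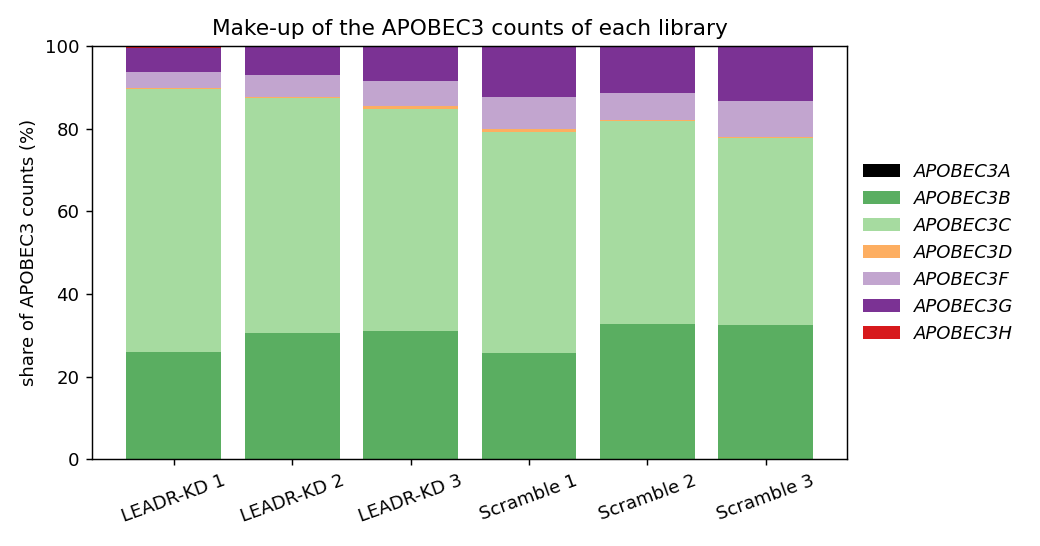
Share of each *APOBEC3* gene in the *APOBEC3* counts of each library (stacked bars, %), LEADR-KD libraries left of Scramble libraries. *APOBEC3G* takes 5.83% to 8.42% in LEADR-KD and 11% to 13.1% in Scramble, and *APOBEC3A*, *APOBEC3D* and *APOBEC3H* are too small to see or nearly so.

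Read assignment limits how far neighbouring members can be told apart. In the gene models of the deposited table *APOBEC3F* (chr22, 39436609 to 39449915) and *APOBEC3G* (39436924 to 39483748) overlap over 12992 bases on the plus strand, and *APOBEC3C* (39410088 to 39416357) and *APOBEC3D* (39410368 to 39429281) over 5990 bases. In GENCODE v44 on the same build *APOBEC3G* starts only at 39473072 and *APOBEC3D* at 39417118, clear of their neighbours. The sources name no rule for reads in a shared exon. With the counts of *APOBEC3F* and *APOBEC3G* summed into 1 feature, a fit chosen after the values were seen, the log2 fold change was -0.71 (adjusted p = 0.00214 from edgeR), and with *APOBEC3C* and *APOBEC3D* summed it was 0.23 (adjusted p = 0.234).

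Stretches of transcript that members share letter for letter were also measured. Of the windows of 100 bases in the canonical transcript of each gene, 7.30% in *APOBEC3G*, 5.96% in *APOBEC3F*, 20.5% in *APOBEC3B* and 0% in *APOBEC3C* occurred letter for letter in a transcript of another member. The closest partner of *APOBEC3G* by this measure was *APOBEC3F*, and that of *APOBEC3B* was *APOBEC3A*. Reads from such stretches are uncertain in origin, and among the 4 tested genes *APOBEC3C* held the fewest of them.

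The genes on either side of the cluster were examined in order of position. Of 11 tested neighbours 2 fell and 0 rose (edgeR, 12.1% and 12.2% over all genes tested), and the counts were the same at an unadjusted p under 0.05 and by DESeq2. The other 9 lay between -0.26 and 0.41 on the log2 scale. The 2 were *DNAL4*, which encodes an axonemal dynein light chain, and *NPTXR*, a neuronal pentraxin receptor gene, side by side on the *APOBEC3A* side of the cluster. *DNAL4* had 67, 115 and 116 counts in LEADR-KD against 234, 366 and 298 in Scramble (log2 fold change -1.55, adjusted p = 2.07e-04 from edgeR). *NPTXR* had 319, 424 and 300 counts in LEADR-KD against 608, 796 and 598 in Scramble (log2 fold change -0.90, adjusted p = 5.65e-04). Neither gene overlapped between the groups, as for 19.9% of all genes on the lower side, and both passed under all 17 alternatives. Of the 11 tested neighbours, 2 were lower and 1 was higher in this non-overlapping way. The span of *DNAL4* lies within that of *SUN2* over 15636 bases on the same strand, and *SUN2* stood at -0.03. *CBX6* and *CBX7*, Polycomb genes that flank the cluster directly, were at 0.08 and -0.26 and did not pass.

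**Figure D3:**
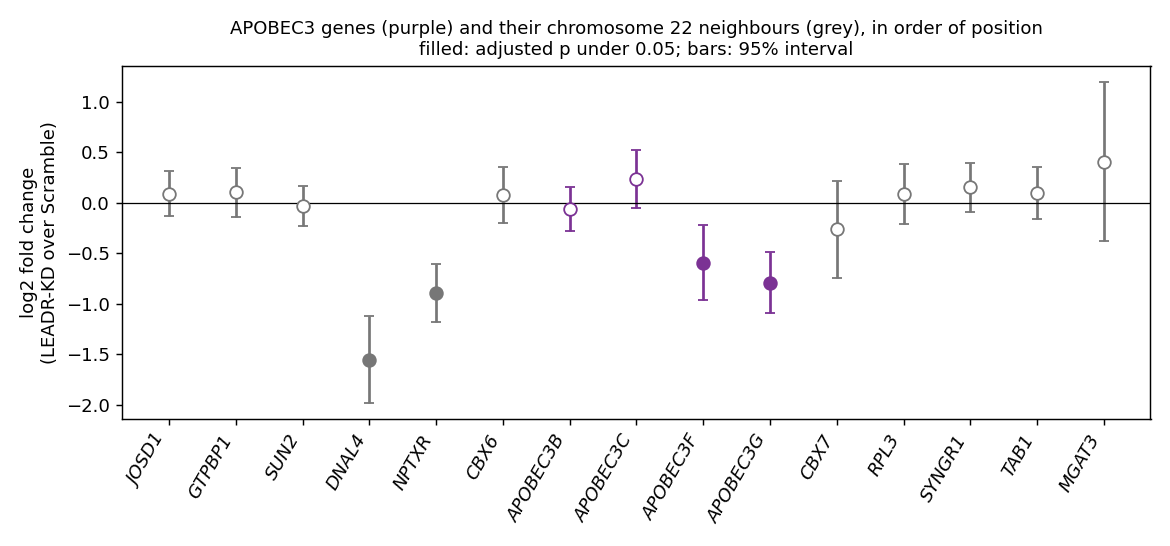
Log2 fold change of LEADR-KD over Scramble, with 95% intervals, for the tested *APOBEC3* genes (purple) and neighbours (grey) in order of position on chromosome 22, filled where the adjusted p was under 0.05. *APOBEC3F* at -0.59 and *APOBEC3G* at -0.79 are next to each other, and between them and *NPTXR* at -0.90 lie *CBX6*, *APOBEC3B* and *APOBEC3C*, whose intervals include 0.

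Many interferon-stimulated genes were higher in *LEADR*-depleted cells, while none of the 4 tested *APOBEC3* genes rose. Of 40 such genes outside the family, all tested, the numbers that rose, fell and did not pass were 22, 1 and 17 (edgeR), with a median log2 fold change of 0.85, against 12.2% higher among all genes. *RSAD2*, which encodes viperin, rose by 2.91 on the log2 scale, the chemokine gene *CXCL10* by 2.48, *IFIT1*, whose product binds viral RNA, by 2.29 and the antiviral factor gene *SAMD9L* by 1.98. Without Scramble 3, *RSAD2* was at 3.55 and *IFIT1* at 3.21, and without Scramble 2 they were at 2.63 and 1.84. The one that fell was the oligoadenylate synthetase gene *OAS2*, at -1.04, a call lost by limma in each of its 3 forms (adjusted p = 0.0544 to 0.157). The mean log2 CPM of the list was 5.14, 5.40 and 5.78 in LEADR-KD against 4.37, 3.65 and 5.03 in Scramble. Scramble 3 thus had a list level close to that of LEADR-KD 1, while its *APOBEC3G* level of 18.5 CPM was far from the 9.65 CPM of LEADR-KD 1. Within LEADR-KD, library 3 had both the highest list level and the highest *APOBEC3G* and *APOBEC3F* levels. In Scramble, library 2 had the lowest list level and the lowest *APOBEC3G* and *APOBEC3F* levels. Scramble 3, with the highest list level of its group, had less of both genes (18.5 and 12.1 CPM) than Scramble 1 (19.8 and 12.9 CPM). The relation between them was not tested.

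**Figure D4:**
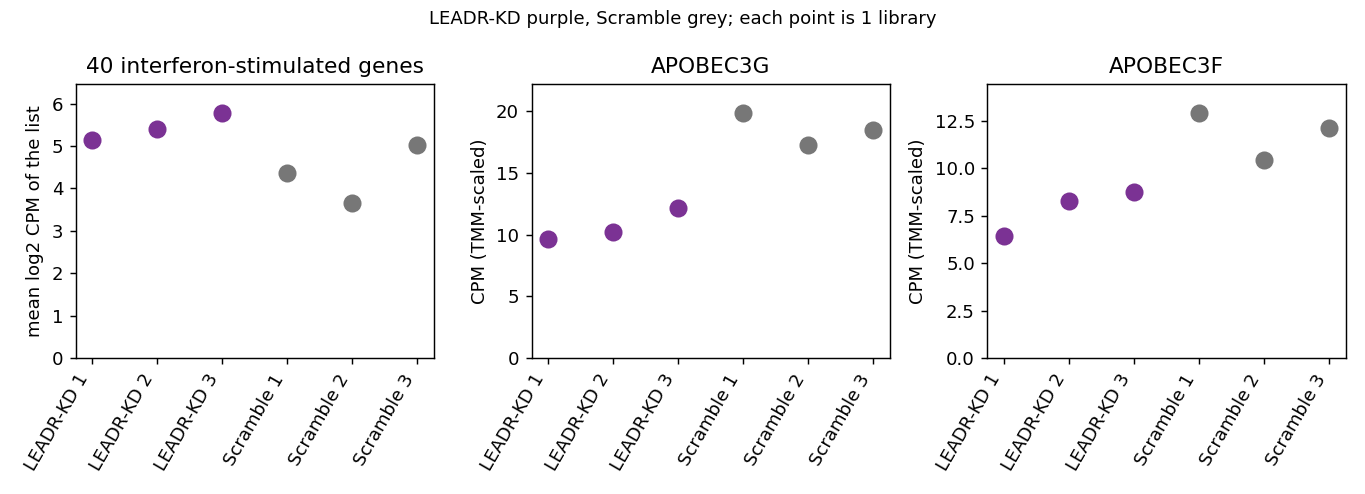
Mean log2 CPM of the 40 interferon-stimulated genes (left) and CPM of *APOBEC3G* (middle) and *APOBEC3F* (right) in each library, LEADR-KD in purple and Scramble in grey, y axes from 0. The list lies at 5.14 to 5.78 in LEADR-KD and 3.65 to 5.03 in Scramble, whereas *APOBEC3G* lies at 9.65 to 12.2 CPM and 17.2 to 19.8 CPM.

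Among other genes whose products restrict retroviruses, *MX2*, *SLFN11* and *SAMHD1* were higher in *LEADR*-depleted cells. Of 20 tested genes, 4 rose and 0 fell by edgeR as well as by DESeq2, and at an unadjusted p under 0.05 the numbers were 7 and 2. Over all genes tested, edgeR called 12.2% higher and 12.1% lower at an adjusted p under 0.05. The shares of all genes at an unadjusted p were not computed, so the 7 and 2 have no background here. The median log2 fold change of the 20 genes was 0.20. *MX2*, which encodes an inhibitor of HIV-1 nuclear import, had 413, 692 and 856 counts in LEADR-KD against 202, 75 and 302 in Scramble (log2 fold change 1.75, adjusted p = 0.00774). *SLFN11*, which encodes a factor that limits translation through transfer RNA, had 724, 732 and 631 counts in LEADR-KD against 314, 367 and 281 in Scramble (log2 fold change 1.16, adjusted p = 5.18e-05). *SAMHD1*, the gene of the dNTP hydrolase that starves reverse transcription, had 1309, 1497 and 1901 counts in LEADR-KD against 825, 712 and 1022 in Scramble (log2 fold change 0.90, adjusted p = 0.00254). The groups did not overlap for any of these, as for 19.9% of all genes on the higher side. By limma on log2(FPKM + 1) with no filter *MX2* was at 1.07 (adjusted p = 0.0839) and *SAMHD1* did not pass either (0.0565). *ZC3HAV1*, which encodes the zinc-finger antiviral protein, rose by 0.31, a call that was lost without any one of LEADR-KD 1, 2 or 3 or Scramble 2 or 3 (adjusted p = 0.0625 to 0.147).

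Among 17 other deaminase and cofactor genes, 9 could be tested, of which 2 rose and 1 fell (edgeR, 12.2% and 12.1% over all genes tested). The relatives *APOBEC1* and *APOBEC4* had 0 counts in all libraries and *APOBEC2* at most 2. *DCTD*, the dCMP deaminase gene that feeds thymidylate synthesis, stood at 59.6 ± 2.86 CPM in LEADR-KD and 40.7 ± 4.45 CPM in Scramble, a log2 fold change of 0.55 that edgeR gave an adjusted p of 0.00254. *ADAT1*, a transfer RNA adenosine deaminase gene, rose by 0.46, though not without LEADR-KD 3 (adjusted p = 0.0506) or Scramble 2 (0.0632). *RBM47*, whose product acts as a cofactor of APOBEC1, stood at 103 ± 9.73 CPM in LEADR-KD and 139 ± 7.67 CPM in Scramble (log2 fold change -0.44, adjusted p = 0.00464). *ADAR*, the interferon-responsive adenosine deaminase of double-stranded RNA, did not pass, at 466 ± 14.7 CPM in LEADR-KD and 501 ± 56.3 CPM in Scramble (log2 fold change -0.11, adjusted p = 0.481).

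Uracil left in DNA by these enzymes is removed by glycosylases and the base excision pathway, or copied by translesion polymerases. Of 20 genes of uracil repair and bypass, 4 rose and 5 fell by edgeR, against 4 and 3 by DESeq2. Over all genes tested, edgeR called 12.2% higher and 12.1% lower. The median log2 fold change was -0.01, as over all genes. *UNG*, the main uracil-DNA glycosylase gene, had 1634, 1820 and 1715 counts in LEADR-KD against 2138, 2838 and 2022 in Scramble (99.9 ± 2.63 CPM and 131 ± 13.2 CPM, log2 fold change -0.39, adjusted p = 0.00822). *APEX1*, the gene of the endonuclease that acts after it, stood at 224 ± 17.7 CPM in LEADR-KD and 317 ± 16.9 CPM in Scramble (log2 fold change -0.50, adjusted p = 0.00147). Both fell by more than the spread between libraries. The mismatch repair gene *MSH6* rose by 0.60 and the strand break sensor gene *PARP1* by 0.30.

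Other calls of this list were near the threshold. *MAD2L2*, a subunit gene of translesion polymerase zeta, rose by 0.53, but not without LEADR-KD 1 or any one of the 3 Scramble libraries (adjusted p = 0.0511 to 0.0840). The translesion polymerase gene *POLI*, at -0.44, lost its call without any one of the 6 libraries (adjusted p = 0.0576 to 0.124) and did not pass by DESeq2 (0.0614), and *APEX2*, at -0.39, without each library but Scramble 1 (0.0613 to 0.197).

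Factors that have been linked to *APOBEC3B* transcription, among them NF-κB subunits and the DREAM repressor complex, were mostly without a call. Of 19 tested, 2 rose and 2 fell by edgeR, against 4 and 2 by DESeq2. Over all genes tested, 24.4% were called by edgeR in either direction, so the edgeR count of this list is near the background. *FOXM1*, a cell cycle transcription factor gene, had 2404, 2650 and 2649 counts in LEADR-KD against 4943, 5233 and 4207 in Scramble (log2 fold change -0.86, adjusted p = 2.59e-05). *RBL2*, which encodes the pocket protein p130 of DREAM, fell by 0.59 on the log2 scale, and its relative *RBL1* rose by 0.61. *TEAD4* rose by 0.69. *APOBEC3B* itself lay within the Scramble range.

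**Figure D5:**
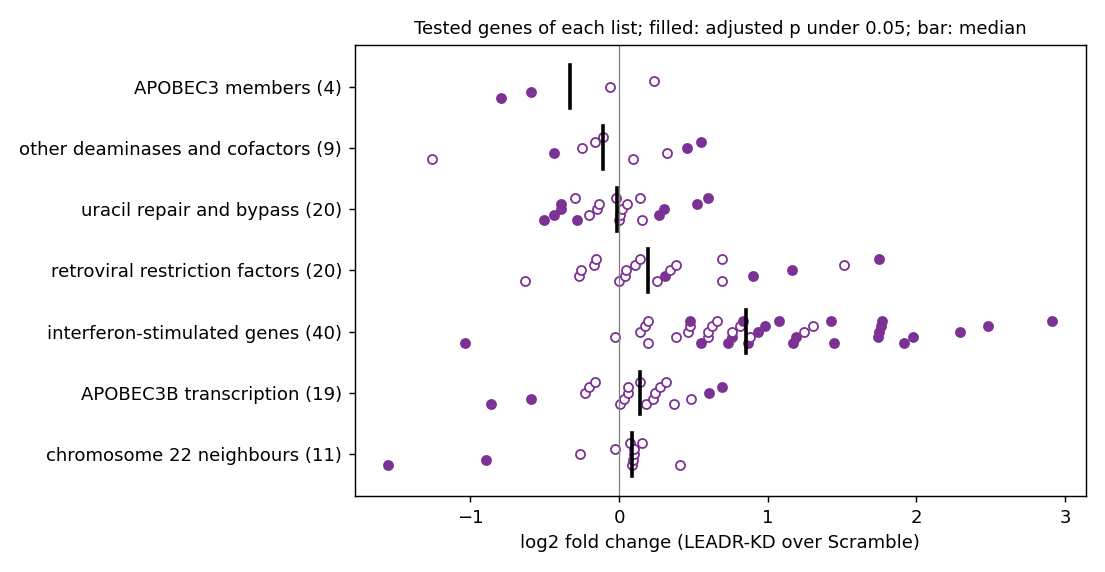
Log2 fold change of LEADR-KD over Scramble for each tested gene of the lists (number of genes in parentheses), filled where the adjusted p was under 0.05, with a bar at the list's median. The medians are -0.33 for the *APOBEC3* genes, 0.85 for the interferon-stimulated genes and -0.01 for uracil repair and bypass.

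The genes whose levels followed each member most closely were ranked by Pearson's r of log2 CPM over the 6 libraries, among 13055 candidates with a mean of at least 1 CPM. For *APOBEC3G* they were *ARFIP2*, *XK* and *IFT140* (r = 0.9985, 0.998 and 0.997), and for *APOBEC3F* *SLC22A20*, *DDB2* and *GGA1* (0.995, 0.993 and 0.993). Those of *APOBEC3C* were *SMARCC1*, *FAM63B* and *PLEKHM3* (0.999, 0.992 and 0.990), and those of *APOBEC3B* *ARL6IP5*, *ZNF764* and *GNAI1* (0.987, 0.984 and 0.981). The 3 genes closest to *APOBEC3G* fell as well (-0.55, -0.99 and -0.54 on the log2 scale), as did *SLC22A20* and *GGA1*, whereas the genes closest to *APOBEC3B* and *APOBEC3C* did not pass. These genes were picked by r over the same 6 libraries, so a change like that of the member largely follows from the pick. With 6 libraries in 2 groups and this many candidates, these values are a description only.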

How the data were processed

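RNA of 6 RT4 libraries, 3 per siRNA, was grouped by the submitters' titles. The authors deposited raw counts per gene. Their processing notes list hg19, HISAT2 (2.0.5) and the counter featureCounts (1.5.0-p3), whereas the study's methods mention Salmon. No strand setting is given. They also deposited FPKM values, made from each count, the gene length and 1 constant per library. Another table, with the authors' own fold changes and p-values by DESeq2 (1.20.0), was not used.

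Genes were kept by filterByExpr (minimum count 10) and scaled by TMM. The test of LEADR-KD over Scramble was edgeR's (4.0.16, glmQLFit and glmQLFTest, R 4.3.3, no covariate), with p values adjusted over 14178 genes. The standard error is the fold change divided by the square root of F, and intervals use the total (prior and residual) degrees of freedom. The biological coefficient of variation was 12.6%. Steps were tested on simulated data. Alternatives used DESeq2 1.42.0, limma 3.58.1 on log2(FPKM + 1) or log2(FPKM + 0.1), other scalings and filters, a replicate block and left-out libraries. Gene models and transcripts are GENCODE v44 on GRCh37. Its gene starts equal those of the table for 74.6% of shared identifiers.

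The members and lists were chosen with earlier results of these data known. Genes are named by rule: every member, *MIR205HG*, each neighbour that passed, up to 4 passing genes per list and direction with the largest change, *ADAR*, *UNG* and *SAMHD1*, and the 3 genes closest to each tested member. Some genes that this rule would name are not reported here.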

Additional observations from a re-analysis of the deposited data

How the results depend on the processing

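*APOBEC3G* kept its call in all 17 alternatives. The number of *APOBEC3* genes that fell was 2 in the fits with other scalings or count filters, DESeq2, limma with a filter, a replicate block and without mitochondrial genes, 1 to 2 when single libraries were left out, 1 without both libraries numbered 1 (chosen after seeing the data) and 1 by limma with log2(FPKM + 1) and no filter, where *MIR205HG*, *UNG* and *IFIT1* also missed the threshold (adjusted p = 0.0507, 0.0515 and 0.0651). *PARP1* did so with library totals (0.0789). *APOBEC3B* turned to 0.0147 without Scramble 2, and lay between -0.124 and 0.0147 when single libraries were left out. The replicate block made 1 gene higher, *APOBEC3C* (adjusted p = 0.0170 from edgeR). Same-numbered libraries deviated together with r = 0.227, 5.80e-04 and 0.266. In each group libraries 1 and 3 were closest to their own number, and library 2 was not. The numbers were therefore not used as pairs in the main fit, and whether same-numbered libraries were handled together was not tested. Over all genes, 1736 rose and 1719 fell. These were 1085 and 1553 with library totals only, where 41.1% rather than 50.2% of calls were higher, 915 and 854 by limma without a filter, 2489 and 2365 with the block, and 1188 to 1457 and 1142 to 1472 when single libraries were left out (1427 and 1552 without both numbered 1). The cause of these shifts was not tested. At 2 to 32 counts per group, *APOBEC3A*, *APOBEC3D* and *APOBEC3H* are limited by depth.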
